A study of Mus musculus with 14 samples.

Results

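The G1 cyclins, their cyclin-dependent kinases (CDKs) and CDK inhibitors were followed through 6 days of mTOR inhibition in mouse ES cells. They are 10 of the 54446 genes in the tables, a list of named genes: the D-type cyclins *Ccnd1*, *Ccnd2* and *Ccnd3*, the E-type cyclins *Ccne1* and *Ccne2*, the kinases *Cdk2*, *Cdk4* and *Cdk6*, and the inhibitors *Cdkn1a* and *Cdkn1b*. Total RNA of E14 ES cells, an established mouse line grown here in serum without feeders, was sequenced in 14 libraries, 2 for each of 7 groups. Wild-type cells were collected untreated (0 h) and after 24, 72 and 144 h in the mTOR inhibitor INK128 (mTORi). *Tet1/2* double-knockout cells (DKO) of the same background, a line derived by Cas9 editing and single-cell sorting in which guides were directed at both TET DNA demethylase genes, were collected at 0, 24 and 72 h. The sources used here name a single DKO line, so a difference between the genotypes cannot be told apart from a difference between lines.

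Every level is given in TPM, a relative abundance that corrects for transcript length, so levels of different genes can be set side by side. Deposited TPM measure the share of a library that a gene takes. Spike-in normalized TPM are the same values after each library was multiplied by 1 factor that the study derived from ERCC RNAs, synthetic RNAs used as spike-ins. Each sample's RNA came from an equal number of sorted cells. The step at which the spike-ins were added is not given in the sources used here. In these bulk libraries fewer cells of a type and less RNA per cell cannot be told apart. Fold changes are log2 differences of values after adding 1 TPM, with a limma fit over 18232 genes and an adjusted p under 0.05 as the call. All 10 members passed the filter on low values. On the spike-in scale the median gene itself moved by −0.33 at 24 h, −0.33 at 72 h and −0.83 at 144 h in wild type, and by −0.49 and −0.12 at 24 and 72 h in DKO. In deposited TPM it moved by −0.01 to 0.14, so each member is described on both scales.

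D-type cyclins are the cyclins that respond most directly to growth signals. They bind CDK4 or CDK6, and the complexes phosphorylate the retinoblastoma protein and free E2F transcription factors, which switch on genes for S phase, the E-type cyclins among them. Cyclin E with CDK2 then carries the cell into DNA replication. The p21 and p27 proteins, encoded by *Cdkn1a* and *Cdkn1b*, bind cyclin-CDK complexes and block CDK2, and p21 is a classical target of p53. ES cells are known for a short G1 phase with high cyclin E-CDK2 activity, and mTOR couples nutrients to protein synthesis and growth.

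Promoter sequence is shown for 3 members with different responses, chosen after their values were seen: *Ccne1*, which fell at every time, *Cdkn1b*, whose share of the library rose, and *Cdk4*, whose share was called at no time. RefSeq promoter windows (GRCm38.p6, from 250 bases before to 50 bases after the start) were held for 7 of the 10 members, namely *Ccnd3*, *Ccne1*, *Cdk2*, *Cdk4*, *Cdk6*, *Cdkn1a* and *Cdkn1b*, and not for *Ccnd1*, *Ccnd2* and *Ccne2*. The 250 bases before the start are printed 5′ to 3′ on the strand of the gene, with every E-box CACGTG in capitals.
*Ccne1*, chr7:38107491-38107740, minus strand: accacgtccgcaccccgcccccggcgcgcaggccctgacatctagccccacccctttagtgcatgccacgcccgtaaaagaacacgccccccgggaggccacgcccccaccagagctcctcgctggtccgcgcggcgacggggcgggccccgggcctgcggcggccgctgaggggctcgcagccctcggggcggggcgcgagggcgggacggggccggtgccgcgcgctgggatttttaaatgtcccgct
*Cdkn1b*, chr6:134920151-134920400, plus strand: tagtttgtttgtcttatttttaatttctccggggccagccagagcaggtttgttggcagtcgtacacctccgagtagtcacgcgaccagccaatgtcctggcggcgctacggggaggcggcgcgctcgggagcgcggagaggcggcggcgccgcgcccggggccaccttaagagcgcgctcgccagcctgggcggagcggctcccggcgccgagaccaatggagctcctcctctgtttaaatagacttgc
*Cdk4*, chr10:127063285-127063534, plus strand: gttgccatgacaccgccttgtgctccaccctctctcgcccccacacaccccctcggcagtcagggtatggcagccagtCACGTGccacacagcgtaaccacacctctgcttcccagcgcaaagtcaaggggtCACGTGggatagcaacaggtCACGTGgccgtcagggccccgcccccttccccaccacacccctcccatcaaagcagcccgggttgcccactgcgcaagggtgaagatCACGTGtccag
Both strands of the windows were searched for CACGTG, which reads the same on either strand, and for the E2F-type motifs TTTCCCGC, TTTGGCGC and TTTCGCGC. The *Cdk4* window held 4 copies of CACGTG and the *Cdk6* window 1, against 7.15% of all 32851 promoter windows of the table with at least 1. The *Cdk2* window held 1 TTTCCCGC, on the strand opposite to the gene, and an E2F-type motif of the 3 stood in 1.84% of all windows. None of these letters was in the windows of *Ccnd3*, *Ccne1*, *Cdkn1a* or *Cdkn1b*, which says nothing about binding elsewhere.

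All positions are those of the files (mm10). *Ccnd1* lies at chr7:144929931-144939925 (minus strand), *Ccnd2* at chr6:127125162-127152193 (minus), *Ccnd3* at chr17:47505051-47599691 (plus), *Ccne1* at chr7:38097984-38107534 (minus) and *Ccne2* at chr4:11191351-11204779 (plus). Among the kinases, *Cdk2* lies at chr10:128697939-128705031 (minus), *Cdk4* at chr10:127063534-127067920 (plus) and *Cdk6* at chr5:3341485-3531008 (plus). The inhibitors lie at chr17:29090976-29100727 (*Cdkn1a*, plus) and chr6:134920401-134925513 (*Cdkn1b*, plus). All are protein-coding. *Ccne1* and *Cdkn1b* overlap no other annotated gene. The other 8 overlap a gene on the opposite strand (*Ccnd1* with *Oraov1*, *Ccnd2* with *9330179D12Rik* and *Gm43126*, *Ccnd3* with *Bysl*, *Ccne2* with *Ints8*, *Cdk2* with *Pmel*, *Cdk4* with *Tspan31*, *Cdk6* with *Gm42435* and *Gm17590*, and *Cdkn1a* with *AC167363.2*), and *Ccnd3* has an annotated pseudogene. Whether strand was used in the counting is not given in the sources used here, so some reads of these 8 genes may belong to the partner.

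The labels were checked first. *Tet2* stood at 99.7 and 95.96 deposited TPM in wild type and 19.1 and 22.2 in DKO at 0 h, and was called lower in DKO at 0, 24 and 72 h (log2 fold change −1.93, −2.52 and −2.06 on the spike-in scale). The libraries of the genotypes did not overlap, though with 1 library left out the adjusted p reached 0.196 at 0 h and 0.0984 at 72 h. *Tet1* RNA was not called on the spike-in scale at any time (197 and 191 against 152 and 147 deposited TPM at 0 h) and in deposited TPM was called lower at 24 h only, so it does not mark the DKO libraries. The study itself screened the clones by PCR and checked the knockouts by western blot with antibodies to both proteins. The 5 pluripotency markers (*Pou5f1*, *Sox2*, *Nanog*, *Zfp42* and *Esrrb*) summed to between 2016 and 2629 deposited TPM in every library, though single markers moved apart: *Nanog* stood at 55.3% of its 0 h mean after 72 h and 65.6% after 144 h in wild type and at 56.5% after 72 h in DKO, and *Sox2* at 156% and *Esrrb* at 131% after 144 h in wild type. On the spike-in scale the sum of the 5 was 4960 to 5030 at 0 h and 2530 to 2781 after 144 h in wild type. In DKO it was 5855 to 6440 at 0 h, 3145 to 5069 after 24 h and 3483 to 5295 after 72 h. The marker sums below are in deposited TPM unless stated otherwise. The 5 primitive endoderm markers (*Gata4*, *Gata6*, *Sox7*, *Sox17* and *Dab2*) summed to 11.1 to 37.2 deposited TPM in wild type at 0 h, 89.9 to 152 at 24 h, 12.1 to 33.7 at 72 h and 11.4 to 11.98 at 144 h. In DKO they summed to 11.2 to 34.9, 26.4 to 56.0 and 20.8 to 27.3 at 0, 24 and 72 h. Of the 5, 3 were called higher in wild type at 24 h, and none was at 0 in any group. Of the 18232 genes tested, 227 were called higher in that comparison on the spike-in scale and 2883 in deposited TPM. The 5 trophectoderm markers summed to at most 12.5 deposited TPM, and 1 of them was listed at 0 in DKO at 72 h. The 3 mesoderm markers (*T*, *Mesp1* and *Kdr*) summed to 1.89 to 2.85 in wild type at 0 h, 4.31 to 11.9 at 24 h, 6.61 to 7.2 after 72 h and 3.28 to 3.4 after 144 h. In DKO they summed to 1.26 to 3.64 at 0 h, 5.35 to 18.2 after 24 h and 6.23 to 8.46 after 72 h. In deposited TPM the treated libraries thus lay above the untreated ones of each genotype. On the spike-in scale the wild-type sums at 144 h (3.4 to 3.52) lay below those at 0 h. The other treated libraries lay above on that scale too. Among the 3 genes, *Mesp1* was lower at 24 h in DKO (69.7% of its 0 h mean in deposited TPM). *Mesp1* overlapped with 0 h in the other treated groups, as did *Kdr* at 144 h in wild type. The 4 fibroblast markers summed to 6.45 to 9.27 in wild type and 11.6 to 18.5 in DKO at 0 h, without overlap, and to at most 6.69 and 9.34 in the treated libraries. Among them *Col1a1* and *Thy1* stood at 21.4% and 29.2% of 0 h at 24 h in wild type, *Col1a2* overlapped with 0 h at 24 and 72 h, and *Pdgfrb* stood at 148% at 24 h in wild type and 183% and 209% at 24 and 72 h in DKO. The 4 neural markers summed to between 73.2 and 93.8 at 0 h in both genotypes and between 28.0 and 35.0 at 24 h. They stood at 54.2 to 69.3 after 72 h and 60.6 to 63.1 after 144 h in wild type, and at 46.7 to 52.9 after 72 h in DKO. Of the 4, *Nes* did not return in wild type (38.2%, 31.6% and 43.6% of its 0 h mean at 24, 72 and 144 h), and *Sox1* overlapped between 0 and 24 h in wild type (88.4% of its 0 h mean) and stood at 241% after 72 h. The part of these other cell types in the results below was not tested.

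Before treatment the 10 members spanned a wide range of levels. In wild type at 0 h, *Cdk4* led with 374 and 359 deposited TPM, followed by *Ccnd3* (202 and 162) and *Ccne1* (186 and 174), whose libraries overlapped. *Cdk2* (58.8 and 61.8) and *Ccnd1* (58.9 and 45.3) also overlapped, ahead of *Cdkn1a* (20.5 and 28.2), *Ccne2* (13.5 and 14.5), *Cdk6* (16.4 and 12.5), *Cdkn1b* (8.54 and 10.01) and *Ccnd2* (7.75 and 9.49). The neighbours *Ccne2* and *Cdk6* overlapped, as did *Cdkn1b* and *Ccnd2*. At 144 h *Cdk4* still led with 400.3 and 395, *Ccne1* (96.5 and 92.3) stood above *Ccnd3* (79.02 and 80.02), and *Cdkn1b* (15.98 and 19.2) overlapped with *Cdkn1a* (21.5 and 18.1) and *Cdk6* (18.3 and 21.1).

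**Figure D1:**
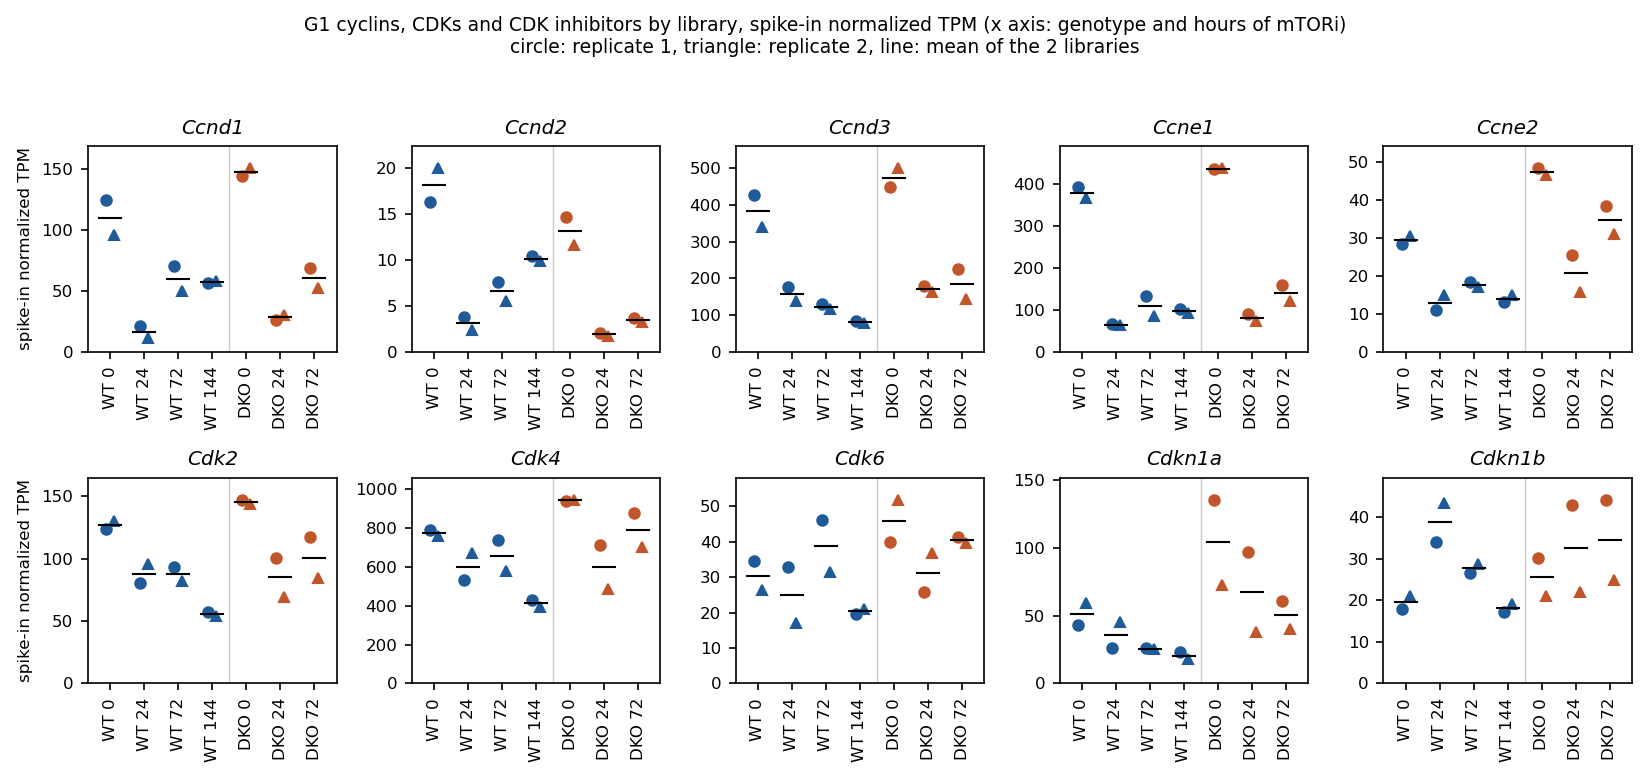
Spike-in normalized TPM (y axis) of each member in every library, by genotype and hours of mTORi (x axis); circles are replicate 1, triangles replicate 2 and lines the mean of the 2 libraries. *Ccnd1*, *Ccnd2*, *Ccne1* and *Ccne2* had their lowest mean at 24 h in both genotypes, *Ccnd3* was lower at each later time in wild type, and *Cdkn1b* was the member whose 24 h wild-type libraries stood above those at 0 h.

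*D-type cyclins.* mTORi lowered all 3 D-type cyclins at 24 h in both genotypes, and they then parted in wild type: *Ccnd1* and *Ccnd2* rose again from 24 to 144 h while *Ccnd3* fell further. *Ccnd1*, cyclin D1, had 124 and 95.7 spike-in normalized TPM in the wild-type libraries at 0 h, 21.2 and 11.8 at 24 h, 70.4 and 49.8 after 72 h and 56.7 and 57.8 after 144 h. In DKO it had 144 and 151 at 0 h, 26.6 and 30.2 after 24 h and 69.1 and 52.04 after 72 h. The 24 h libraries were the lowest of each genotype and overlapped with no other time, and their mean was 15.02% of that at 0 h in wild type and 19.3% in DKO. The log2 fold change at 24 h was −2.71 ± 0.30 (SE, 2 libraries a group, adjusted p = 2.92e-05) in wild type and −2.34 ± 0.30 (adjusted p = 0.000109) in DKO. Both calls were kept whichever 1 of the 4 libraries was left out. Only 0.154% and 0.406% of the genes tested lay further down in these comparisons.

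From 24 to 72 h *Ccnd1* rose in wild type by 1.84 (adjusted p = 0.00421), a comparison added after the values were seen, as were all those against 24 h. The call was lost without 24 h replicate 2 or 72 h replicate 1 (adjusted p = 0.0936 and 0.255). Between these times 1 of the 10 members was called higher and 0 lower on the spike-in scale, where 0.428% of all genes were called higher. With the replicate number as a block within each genotype, *Ccnd1*, *Ccnd2* (adjusted p = 0.036) and *Ccne1* were called higher, against 3.2% of all genes. In deposited TPM 4 were called higher, the same 3 and *Ccne2*, against 5.33%. In DKO the same step was 1.06 (adjusted p = 0.0958, and 0.00642 with the block). None of the 10 members was called between 24 and 72 h in DKO, against 1.42% of all genes. With the block 3 were called higher, *Ccnd1*, *Ccne1* and *Ccne2* (adjusted p = 0.0345), against 12.7% of all genes. In deposited TPM with the block *Ccne1* (adjusted p = 0.0306) and *Ccne2* (adjusted p = 0.0236) were called higher, and neither was without it. At 72 h in wild type the *Ccnd1* difference from 0 h was −0.87 (adjusted p = 0.0775, and 0.00859 with the block). At 144 h wild-type *Ccnd1* was at 52.04% of its 0 h mean on the spike-in scale (log2 fold change −0.92, adjusted p = 0.0182), close to the shift of the median gene. This call was lost without 0 h replicate 1, 144 h replicate 1 or 144 h replicate 2 (adjusted p = 0.141, 0.088 and 0.09). In DKO *Ccnd1* was lower at 72 h by 1.28 (adjusted p = 0.0251), a call lost without 0 h replicate 1, 0 h replicate 2 or 72 h replicate 2 (adjusted p = 0.113, 0.136 and 0.205). The same difference in deposited TPM was −0.97 (adjusted p = 0.0593, and 0.0177 with the block). In deposited TPM it ran from 58.9 and 45.3 at 0 h through 14.8 and 6.37 at 24 h and 42.6 and 33.5 at 72 h to 52.96 and 57.8 at 144 h. The change at 144 h was 0.097 with a 95% interval of −0.66 to 0.85. The share of the library taken by *Ccnd1* was thus lowest at 24 h, and at 144 h its libraries overlapped with those at 0 h.

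*Ccnd2*, cyclin D2, was the scarcest D-type cyclin. It had 16.4 and 20.04 spike-in normalized TPM at 0 h in wild type, 3.86 and 2.35 at 24 h, 7.67 and 5.56 after 72 h and 10.4 and 9.90 after 144 h. In DKO it had 14.7 and 11.7 at 0 h, 2.09 and 1.74 after 24 h and 3.72 and 3.32 after 72 h. The wild-type libraries formed 4 separate levels, highest at 0 h and lowest at 24 h, and the DKO libraries lay below the wild-type ones at each of 0, 24 and 72 h. The change at 24 h was −2.24 ± 0.34 in wild type (adjusted p = 0.000612) and −2.28 ± 0.34 in DKO (adjusted p = 0.000292). At 72 h the gene was still lower, by 1.34 in wild type (adjusted p = 0.0199) and 1.64 in DKO (adjusted p = 0.00944). The calls at 24 h were kept whichever library was left out. That at 72 h in wild type was lost without 0 h replicate 1, 0 h replicate 2, 72 h replicate 1 or 72 h replicate 2 (adjusted p = 0.0837, 0.201, 0.0621 and 0.271), and that in DKO without 0 h replicate 1 or 72 h replicate 2 (adjusted p = 0.104 and 0.0862). At 144 h in wild type it stood at 55.9% of its start (−0.78, adjusted p = 0.0602, and 0.0111 with the block), and it had risen by 1.47 from 24 h (adjusted p = 0.00746), a call lost without 24 h replicate 2, 144 h replicate 1 or 144 h replicate 2 (adjusted p = 0.164, 0.0864 and 0.0837). In deposited TPM its 144 h libraries (9.75 and 9.90) were above those at 0 h (7.75 and 9.49), with a difference of 0.18 that was not called (adjusted p = 0.589).

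*Ccnd3*, cyclin D3, was the most abundant D-type cyclin and was lowest in wild type at 144 h. Wild-type libraries had 427 and 341 spike-in normalized TPM at 0 h, 177 and 139.8 at 24 h, 129.5 and 116 after 72 h and 84.6 and 80.02 after 144 h. DKO libraries had 449 and 500.2 at 0 h, 181 and 163 after 24 h and 225 and 145 after 72 h. In wild type each time lay wholly below the one before, whereas in DKO the 24 and 72 h libraries overlapped. The log2 fold change against 0 h was −1.28 (adjusted p = 0.00537), −1.63 (adjusted p = 0.00154) and −2.20 ± 0.27 (adjusted p = 2.03e-05) at 24, 72 and 144 h, the last leaving 21.4% of the start. In DKO it was −1.46 (adjusted p = 0.00144) and −1.38 (adjusted p = 0.00648). In deposited TPM the wild-type libraries went from 202 and 162 at 0 h to 123 and 75.4, 78.4 and 77.7 and 79.02 and 80.02, so the share stood at its 144 h level by 72 h, and the change at 144 h was −1.18 (adjusted p = 0.00535). *Ccnd3* was called lower in all 5 comparisons with 0 h on both scales. On the spike-in scale the calls at 144 h in wild type and at 24 h in DKO were kept whichever library was left out. The call at 24 h in wild type was lost without 0 h replicate 1 or 24 h replicate 2 (adjusted p = 0.0788 and 0.0514), that at 72 h without 72 h replicate 2 (adjusted p = 0.0518) and that at 72 h in DKO without 0 h replicate 2 or 72 h replicate 2 (adjusted p = 0.0776 and 0.109). It was also lower at 144 h than at 24 h on the spike-in scale (−0.93, adjusted p = 0.0261, lost without any 1 of the 4 libraries), and not in deposited TPM (−0.27, adjusted p = 0.445).

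The makeup of the D-type cyclins changed with these steps. *Ccnd3* made up 75.2 and 74.7% of the summed D-type cyclin TPM in wild type at 0 h, 87.6 and 90.8% at 24 h, 62.4 and 67.6% after 72 h and 55.8 and 54.2% after 144 h. In DKO its part was 73.8 and 75.5%, 86.3 and 83.6% and 75.6 and 72.4% at 0, 24 and 72 h. Cyclin D3 thus dominated most at 24 h in both genotypes. At 144 h *Ccnd1* had grown to 37.4 and 39.1% of the D-type sum and *Ccnd2* to 6.88 and 6.70%, from 21.9 and 20.9% and 2.88 and 4.39% at 0 h.

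*E-type cyclins.* *Ccne1* fell in every comparison with 0 h and the scarcer *Ccne2* was called lower at 24 h in both genotypes and at 144 h in wild type. *Ccne1*, cyclin E1, had 392 and 366 spike-in normalized TPM at 0 h in wild type, 66.8 and 63.4 at 24 h, 133 and 85.8 after 72 h and 103 and 92.3 after 144 h. In DKO it had 435 and 438 at 0 h, 90.2 and 73.7 after 24 h and 160.3 and 120.3 after 72 h. Every treated library was below every untreated one, with the 24 h libraries at the bottom of the wild-type and DKO series. The log2 fold change in wild type was −2.52 ± 0.27 at 24 h (adjusted p = 2.92e-05), −1.82 at 72 h (adjusted p = 0.000707) and −1.95 at 144 h (adjusted p = 6.11e-05). In DKO it was −2.404 at 24 h (adjusted p = 2.64e-05) and −1.64 at 72 h (adjusted p = 0.00174). Each of the 5 calls was kept whichever library was left out. The mean of the 144 h libraries was 25.8% of that at 0 h on the spike-in scale and 52.5% in deposited TPM, where the gene was called lower in all 5 comparisons as well.

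Between 24 and 72 h *Ccne1* was higher by 0.71 in wild type (adjusted p = 0.293, and 0.0481 with the block) and by 0.76 in DKO (adjusted p = 0.181, and 0.024 with the block). In deposited TPM, *Ccne1* libraries ran 186 and 174, 46.6 and 34.2, 80.5 and 57.6 and 96.5 and 92.3 over the 4 wild-type times. On this scale it was higher at 72 than at 24 h in wild type by 0.75 (adjusted p = 0.0323), and at 144 h its libraries still lay below those at 0 h. From 24 to 144 h it was higher by 0.58 on the spike-in scale (adjusted p = 0.132, and 0.0333 with the block).

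*Ccne2*, cyclin E2, had 28.5 and 30.6 spike-in normalized TPM at 0 h in wild type, 11.02 and 14.98 at 24 h, 18.5 and 16.97 after 72 h and 13.04 and 15.03 after 144 h. In DKO the values were 48.4 and 46.5 at 0 h, 25.6 and 15.7 after 24 h and 38.5 and 30.9 after 72 h. All treated libraries were below the untreated ones of their genotype, and the DKO libraries were above the wild-type ones at each shared time. It fell by 1.14 on the log2 scale at 24 h in wild type (adjusted p = 0.0232) and by 1.199 in DKO (adjusted p = 0.0113). The first call was lost without 0 h replicate 1, 0 h replicate 2 or 24 h replicate 1 (adjusted p = 0.105, 0.19 and 0.257) and the other without 0 h replicate 1, 0 h replicate 2 or 24 h replicate 2 (adjusted p = 0.105, 0.0612 and 0.099). At 72 h the difference from 0 h was −0.705 in wild type (adjusted p = 0.154, and 0.0258 with the block) and −0.45 in DKO (adjusted p = 0.453). At 144 h *Ccne2* was lower on the spike-in scale (−1.02, adjusted p = 0.011), a call lost without 0 h replicate 2, 144 h replicate 1 or 144 h replicate 2 (adjusted p = 0.0843, 0.0904 and 0.057). Its share of the library was 12.2 and 15.03 deposited TPM against 13.5 and 14.5 at 0 h, a difference of −0.04 with a 95% interval of −0.32 to 0.24.

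*Kinases.* On the spike-in scale *Cdk2* and *Cdk4* were called lower at 144 h in wild type, and *Cdk2* also at 24 h in DKO. In deposited TPM none of the 3 kinases was called without the block, and with it *Cdk2* was called lower in DKO. *Cdk4*, the partner of D-type cyclins and the most abundant of the 10 members, had 789.8 and 758 spike-in normalized TPM at 0 h in wild type, 533 and 668 at 24 h, 737 and 576 after 72 h and 428 and 395 after 144 h. In DKO it had 937 and 945 at 0 h, 713 and 485 after 24 h and 873 and 699 after 72 h. Its 144 h libraries were the lowest of all, and the change of −0.91 (adjusted p = 0.00924) was close to the −0.83 of the median gene. This call was lost without 0 h replicate 1, 0 h replicate 2 or 144 h replicate 2 (adjusted p = 0.0581, 0.057 and 0.0817). In deposited TPM the 14 libraries stayed between 319 and 446, and none of the 5 changes against 0 h was called (−0.11 to 0.18). At 24 h in DKO the spike-in change of −0.68 had an adjusted p of 0.0766, and 0.0209 with the block.

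*Cdk2*, the kinase of cyclin E, had 124 and 131 spike-in normalized TPM at 0 h in wild type, 80.3 and 95.7 at 24 h, 93.2 and 82.4 after 72 h and 57.3 and 54.1 after 144 h. In DKO the values were 148 and 144 at 0 h, 101 and 69.6 after 24 h and 118 and 84.3 after 72 h. All treated libraries lay below the untreated ones of their genotype on this scale. It was called lower at 144 h in wild type (−1.18, adjusted p = 0.00221) and at 24 h in DKO (−0.79, adjusted p = 0.0448). The first call was kept whichever library was left out and the other was lost without 0 h replicate 1, 0 h replicate 2 or 24 h replicate 2 (adjusted p = 0.238, 0.144 and 0.268). In deposited TPM the libraries stayed between 45.0 and 61.9, and none of the 5 changes was called without the block (−0.24 to −0.11). With the block *Cdk2* was called lower in deposited TPM at 24 h (−0.22, adjusted p = 0.0485) and 72 h (−0.24, adjusted p = 0.0366) in DKO. It was also lower at 144 h than at 24 h in wild type with the block on the spike-in scale (−0.65, adjusted p = 0.019), and not without it (adjusted p = 0.1).

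*Cdk6*, the other partner of D-type cyclins, was much scarcer than *Cdk4* and spread widely between replicates. It had 34.7 and 26.3 spike-in normalized TPM at 0 h in wild type, 32.8 and 17.1 at 24 h, 46.2 and 31.5 after 72 h and 19.5 and 21.1 after 144 h. In DKO the values were 40.01 and 51.9 at 0 h, 25.7 and 36.9 after 24 h and 41.3 and 39.8 after 72 h. Its libraries at 144 h in wild type and at 24 h in DKO lay below those at 0 h and the other treated groups overlapped with them, and no change against 0 h was called on either scale. At 72 h in wild type, the time of its highest value, the 95% interval ran from −0.37 to 1.02 on the spike-in scale, and from −0.23 to 1.68 in deposited TPM. The sign of the *Cdk6* change at 24 h in wild type and DKO, at 144 h in wild type and at 72 h in DKO, like that of *Cdk4* at 72 and 144 h in wild type and at 72 h in DKO, differed between the scales.

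From 72 to 144 h in wild type none of the 10 members was called, against 0.389% of all genes called lower. With the block the 3 kinases were called lower (*Cdk2* −0.64, adjusted p = 0.0415; *Cdk4* −0.66, adjusted p = 0.0464; *Cdk6* −0.88, adjusted p = 0.0256), against 18.5% of all genes. In deposited TPM the kinases differed by −0.29 to −0.05 between these times, and none was called.

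*Inhibitors.* *Cdkn1b* was called higher in deposited TPM at every time in both genotypes and *Cdkn1a* was called lower on the spike-in scale at 144 h. *Cdkn1b*, which encodes p27, had 18.03 and 21.1 spike-in normalized TPM at 0 h in wild type, 34.1 and 43.4 at 24 h, 26.6 and 28.8 after 72 h and 17.1 and 19.2 after 144 h. In DKO it had 30.2 and 20.96 at 0 h, 43.00 and 22.05 after 24 h and 44.2 and 24.95 after 72 h. In wild type the 24 and 72 h libraries were above those at 0 h and the 144 h libraries overlapped with them, and in DKO the treated and untreated libraries overlapped. The change at 24 h in wild type was 0.94 ± 0.35 with an adjusted p of 0.0877, and it was called with the block (adjusted p = 0.00275), where 4.48% of all genes were called higher. Of all genes tested, 97.7% lay below it. From 24 to 144 h it fell by 1.05 on the log2 scale (adjusted p = 0.0472, lost without any 1 of the 4 libraries). *Cdkn1b* and *Ccnd3*, 2 of the 10 members, were called lower between these times, against 14.7% of all genes, and 2 (*Ccnd1* and *Ccnd2*) higher, against 0.9%. With the block 4 were called lower, against 40.5%, and 3 higher, against 2.58%. In deposited TPM 0 were called lower and 4 higher, against 12.6% of all genes called higher: *Ccnd1* (2.38), *Ccnd2* (1.90), *Ccne1* (1.22, adjusted p = 0.00178) and *Ccne2* (0.71, adjusted p = 0.00332). On the spike-in scale *Ccne2* differed by 0.12 between these times (adjusted p = 0.8). In deposited TPM *Cdkn1b* differed by −0.41 from 24 to 144 h (adjusted p = 0.0819, and 0.0145 with the block). From 24 to 72 h in wild type it differed by −0.40 on that scale (adjusted p = 0.125, and 0.0262 with the block).

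In deposited TPM the *Cdkn1b* libraries had 8.54 and 10.01 at 0 h in wild type, 23.8 and 23.4 at 24 h, 16.1 and 19.3 after 72 h and 15.98 and 19.2 after 144 h. In DKO they had 10.7 and 8.83 at 0 h, 19.2 and 16.2 after 24 h and 17.5 and 14.4 after 72 h. Every treated library was above every untreated one. On this scale *Cdkn1b* was the 1 member called higher, in all 5 comparisons: by 1.26 (adjusted p = 0.000316), 0.86 (adjusted p = 0.00331) and 0.85 (adjusted p = 0.00315) at 24, 72 and 144 h in wild type, and by 0.798 (adjusted p = 0.0044) and 0.65 (adjusted p = 0.0127) in DKO. The share of all genes called higher there was 15.8%, 12.6% and 15.6% in wild type and 11.6% and 17.2% in DKO. The spike-in normalized mean of *Cdkn1b* at 144 h was 92.7% of that at 0 h, with a log2 difference of −0.102 and a 95% interval of −0.83 to 0.62.

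*Cdkn1a*, which encodes p21, had 43.2 and 59.6 spike-in normalized TPM at 0 h in wild type, 26.4 and 45.4 at 24 h, 25.8 and 25.3 after 72 h and 23.04 and 18.1 after 144 h. In DKO it had 136 and 72.5 at 0 h, 96.8 and 38.3 after 24 h and 60.8 and 40.5 after 72 h, with replicate 1 the higher library each time. The wild-type libraries at 72 and 144 h lay below those at 0 h. It was called lower at 144 h (−1.27, adjusted p = 0.0137), a call lost without 0 h replicate 2 or 144 h replicate 2 (adjusted p = 0.108 and 0.0947). It was called lower with the block also at 72 h in wild type (−0.96, adjusted p = 0.00879) and at 24 and 72 h in DKO (−0.69 and −0.98, adjusted p = 0.0348 and 0.0115). From 24 to 144 h in wild type it differed by −0.74 (adjusted p = 0.187, and 0.0257 with the block). In deposited TPM none of its 5 changes was called without the block (−0.67 to −0.13), and with it the change at 72 h in DKO was called (adjusted p = 0.0227).

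**Figure D2:**
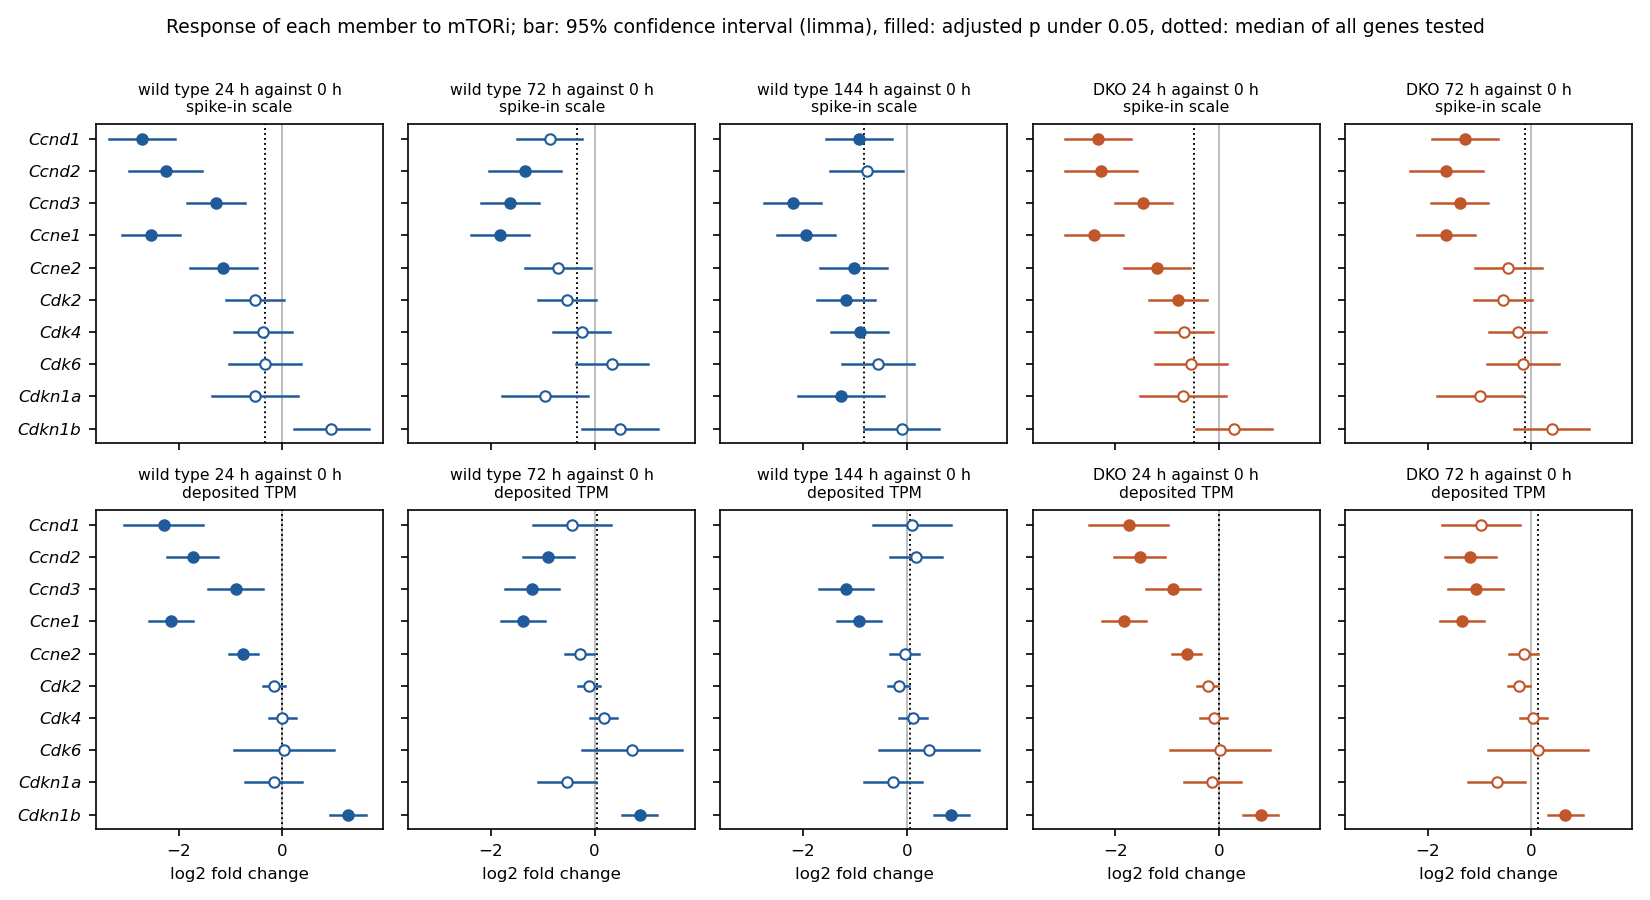
Log2 fold change against 0 h (x axis) of each member (y axis) at each time, on the spike-in scale (top) and in deposited TPM (bottom); bars are 95% confidence intervals of the limma fit, filled points have an adjusted p under 0.05 and the dotted line is the median of all genes tested. *Ccnd3* and *Ccne1* lay below the median of all genes at each of the 5 times and on both scales, and *Cdkn1b* lay above it throughout.

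Adjusted p-values of the fits with 1 library left out rest on the spread pooled over all groups, so the lone library of a group was taken to vary like the others. Counted together, 5 of the 10 members were called lower and 0 higher at 24 h in wild type on the spike-in scale, against 8.73% of all genes called lower. The 5 were the cyclins. At 72 h 3 were called lower (*Ccnd2*, *Ccnd3* and *Ccne1*), against 7.6% of all genes. At 144 h 7 were called lower, against 50.5%, the background nearest to the share of members called. In DKO 6 were called lower at 24 h, against 18.7%, and 4 at 72 h (the D-type cyclins and *Ccne1*), against 2.95%. None was called higher in these 5 comparisons. With the block, which fits the replicates of a genotype as parallel series, the counts lower were 5, 6 and 8 at 24, 72 and 144 h in wild type, against 25.7%, 25.4% and 66.3% of all genes. In DKO they were 8 and 5 at 24 and 72 h, against 38.1% and 13.2%.

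In deposited TPM, where a member is set against the rest of its library, 5, 3 and 2 members were called lower at 24, 72 and 144 h in wild type, against 14.1%, 11.4% and 11.7% of all genes. In DKO 5 and 3 were called lower at 24 and 72 h, against 13.3% and 9.06%. With the block 6 and 6 were called lower in DKO on this scale, against 16.6% and 12.3%. At 144 h the 2 were *Ccnd3* and *Ccne1*. The median log2 fold change of the 10 members was −0.84, −0.79 and −0.97 in wild type at 24, 72 and 144 h and −0.995 and −0.76 in DKO on the spike-in scale, and −0.46, −0.36 and 0.03 in wild type and −0.43 and −0.45 in DKO in deposited TPM.

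**Figure D3:**
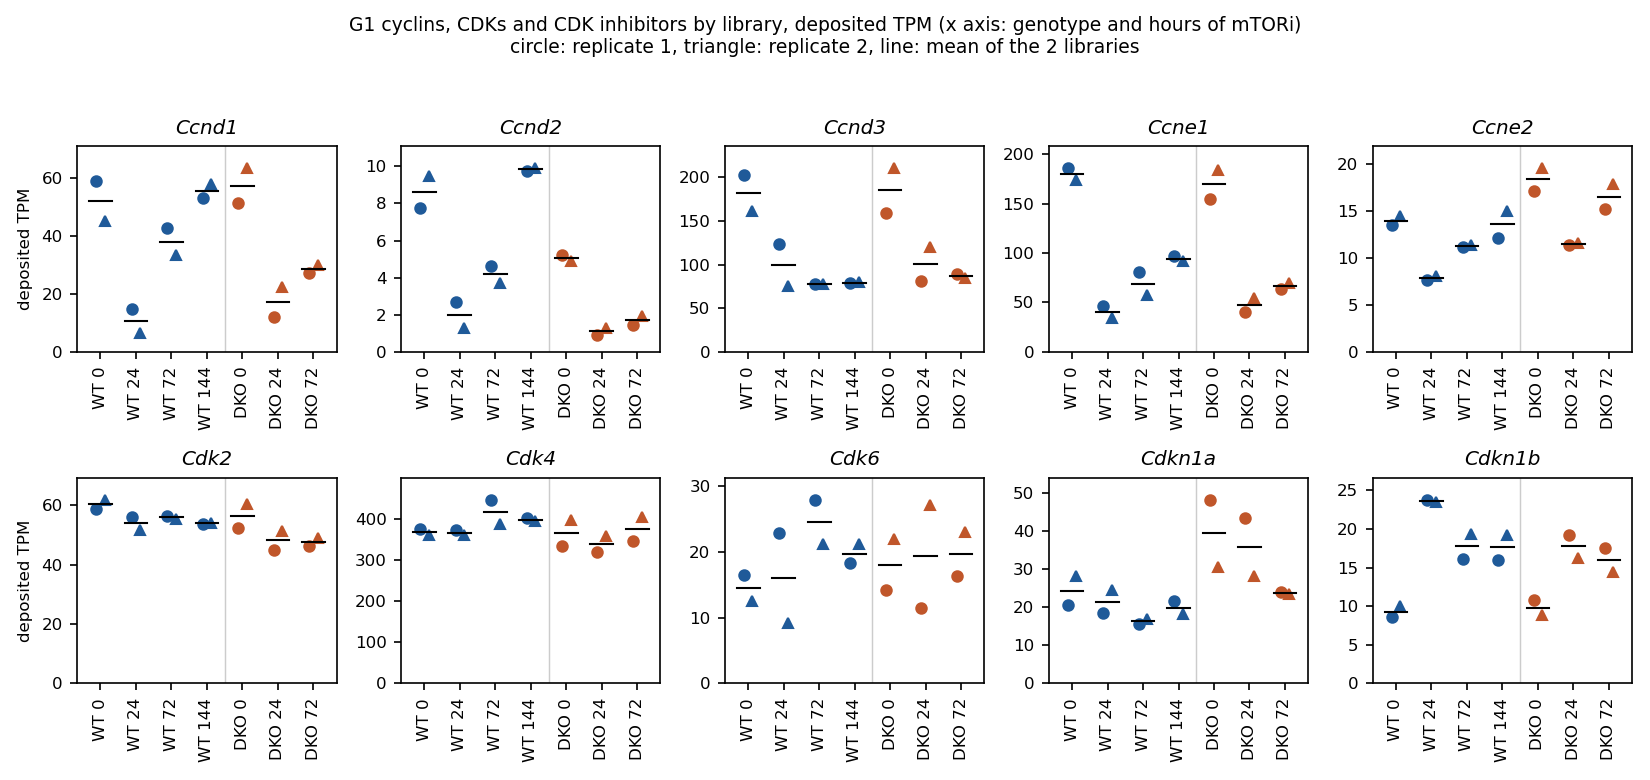
Deposited TPM (y axis) of each member in every library, by genotype and hours of mTORi (x axis); circles are replicate 1, triangles replicate 2 and lines the mean of the 2 libraries. The cyclins dropped at 24 h and at 144 h *Ccnd1* and *Ccne2* overlapped with the 0 h libraries and *Ccnd2* lay above them, and *Cdkn1b* was higher in every treated library.

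*Balance within a library.* A ratio of 2 members of the same library does not depend on the factor of that library. In all, 7 ratios were each tested for genotype and for mTORi by exact permutation of the library labels, 2-sided, with 14 tests adjusted together. These tests take libraries as independent, whereas same-numbered libraries of a genotype were handled in parallel and deviated together. With each such series as a unit, only 2 a genotype, no genotype test can go below an exact permutation p of 0.333, so the genotype p-values below are too small if the series are the units and the differences are best read as values. Permuted within series, the 4 mTORi differences that passed still did, each with an exact permutation p of 0.00694, the smallest possible (adjusted p = 0.0243). The ratio of summed *Cdkn1a* and *Cdkn1b* to the 5 summed G1 cyclins was 0.0619 and 0.0945 in wild type at 0 h, 0.217 and 0.382 at 24 h, 0.146 and 0.198 after 72 h and 0.15 and 0.146 after 144 h. In DKO it was 0.152 and 0.0815, 0.43 and 0.212 and 0.212 and 0.186 at 0, 24 and 72 h. Inhibitor RNA thus weighed most against cyclin RNA at 24 h, and every treated library was above the untreated ones of its genotype, by a mean of 1.24 on the log2 scale (exact permutation p = 0.00238, the smallest the design allows, adjusted p = 0.00833). This did not pass without wild-type 0 h replicate 1 (log2 difference 1.08, adjusted p = 0.0762) or DKO 0 h replicate 2 (log2 difference 1.01, adjusted p = 0.0571).

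The ratio of *Cdkn1a* to *Cdkn1b* was 2.395 and 2.82 in wild type at 0 h, 0.775 and 1.05 at 24 h, 0.97 and 0.878 after 72 h and 1.35 and 0.943 after 144 h. In DKO the ratio was 4.49 and 3.46 at 0 h, 2.25 and 1.74 after 24 h and 1.37 and 1.62 after 72 h. p21 RNA outweighed p27 RNA in all untreated libraries and in all treated DKO libraries, and in the treated wild-type libraries the ratio lay on either side of 1. The ratio was lower under mTORi by 1.30 on the log2 scale (exact permutation p = 0.00238, adjusted p = 0.00833) and higher in DKO by 0.81 (exact permutation p = 0.00926, the smallest the design allows, adjusted p = 0.0216). The genotype difference did not pass without wild-type 0 h replicate 1 (log2 difference 0.77, adjusted p = 0.0519).

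*Ccne1* to *Ccne2* was 13.8 and 11.97 in wild type at 0 h and between 4.24 and 7.92 in the treated wild-type libraries, and 8.98 and 9.41 in DKO at 0 h and between 3.53 and 4.68 in its treated libraries. Cyclin E1 dominated throughout, but less under mTORi (log2 difference −1.15, exact permutation p = 0.00238, adjusted p = 0.00833) and less in DKO (−0.46, exact permutation p = 0.0185, adjusted p = 0.037). The genotype difference did not pass when each of 8 of the 12 libraries in turn (adjusted p from 0.0556 to 0.0741) was left out. *Ccnd2* to *Ccnd3* was between 0.0107 and 0.0328 in all 6 DKO libraries and was lower in DKO at matched times by 1.01 (exact permutation p = 0.00926, adjusted p = 0.0216), a difference that did not pass without DKO 0 h replicate 2 (log2 difference −0.92, adjusted p = 0.0519). *Cdk4* to *Cdk2* was higher under mTORi by 0.22 (exact permutation p = 0.00238, adjusted p = 0.00833), the smallest of the differences that passed. It did not pass without DKO 0 h replicate 1 (log2 difference 0.21, adjusted p = 0.05). The other 7 tests did not pass, among them *Ccnd1* to *Ccnd3* under mTORi (−0.12, exact permutation adjusted p = 0.857), which was lower than at 0 h in the 24 h libraries of both genotypes and higher in wild type at 72 and 144 h.

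**Figure D4:**
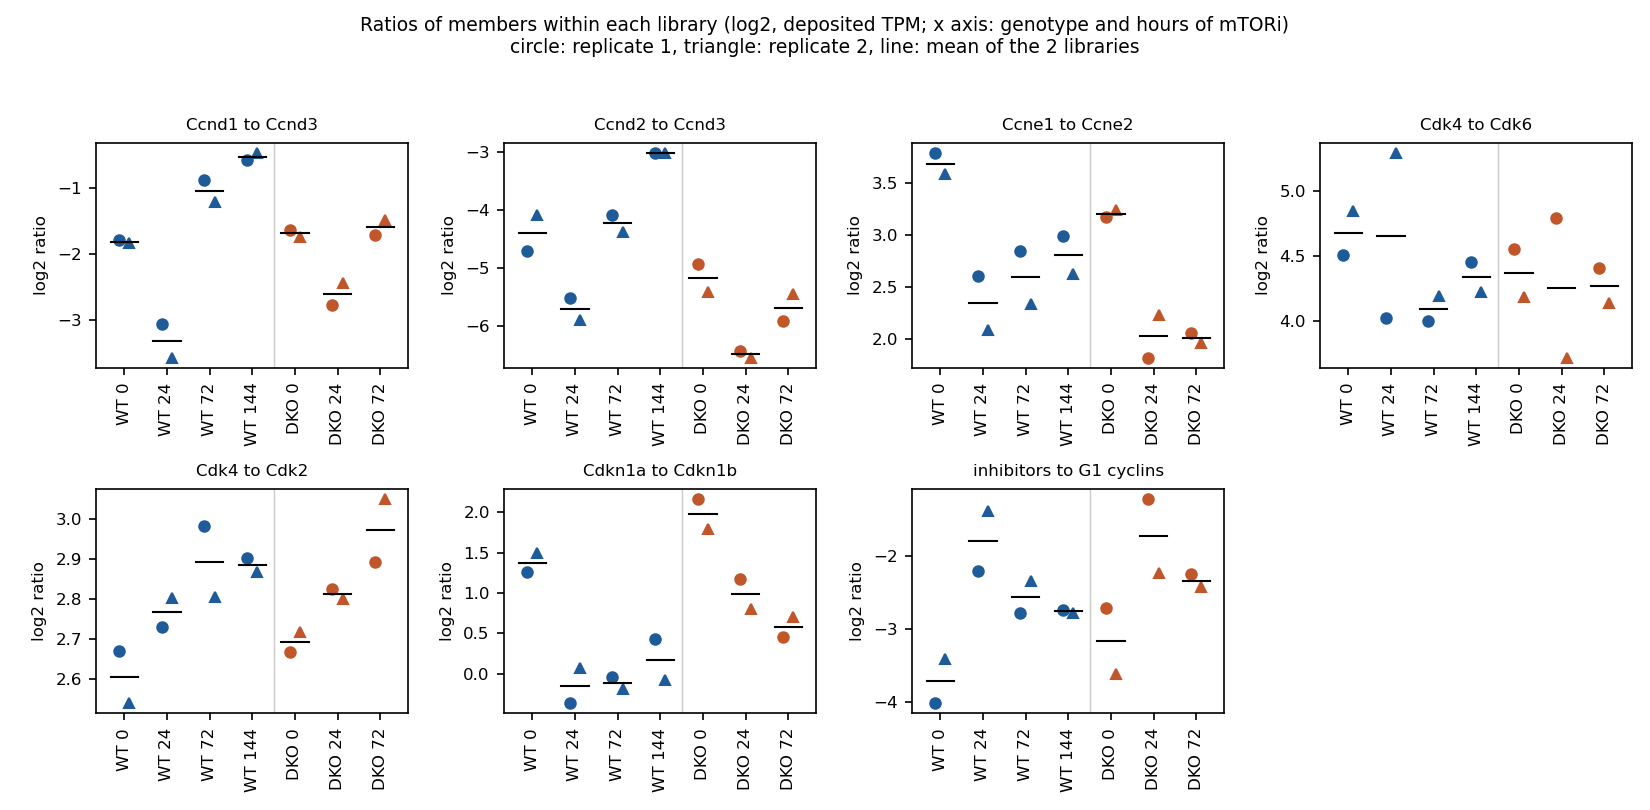
Log2 ratios of members within each library (y axis, deposited TPM) by genotype and hours of mTORi (x axis); circles are replicate 1, triangles replicate 2 and lines the mean of the 2 libraries. *Cdkn1a* to *Cdkn1b* dropped from above 1 to below 0.5 on the log2 scale in wild type, and *Ccnd2* to *Ccnd3* was lower in DKO than in wild type at each shared time.

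*DKO against wild type.* With the same treatment and time, none of the 10 members was called between DKO and wild type on the spike-in scale, where limma called 0.0439% of all genes before treatment, 0.0439% at 24 h and 0.329% at 72 h. At an unadjusted p under 0.05, 2, 1 and 4 of the 10 were below at 0, 24 and 72 h, against 8.35%, 4.14% and 23% of all genes. The member counted at 24 h and 1 of the 4 at 72 h are not among the 3 genes described next. The median gene itself lay higher in DKO on this scale, by 0.287, 0.103 and 0.490 at 0, 24 and 72 h. In deposited TPM it differed by 0.018, 0.014 and 0.108. The differences that follow are on the spike-in scale and include this shift. *Cdkn1a* was higher in DKO by 0.95 at 0 h (95% interval 0.13 to 1.78, adjusted p = 0.552), 0.797 at 24 h (−0.03 to 1.63) and 0.93 at 72 h (0.102 to 1.76). *Ccne2* was higher by 0.67 (0.03 to 1.31), 0.61 (−0.04 to 1.25) and 0.92 (0.28 to 1.57, adjusted p = 0.155). *Ccnd2* was lower by 0.44 (−1.14 to 0.26), 0.47 (−1.17 to 0.23) and 0.74 (−1.44 to −0.04, adjusted p = 0.207). Each of these 3 genes had the same sign at the 3 times on both scales, and the intervals leave room for differences of more than 1 on the log2 scale, so the design does not show that the genotypes were alike.

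In deposited TPM *Ccnd2* at 72 h was called, with 1.47 and 1.92 in DKO against 4.64 and 3.73 in wild type (−0.94, adjusted p = 0.045), 1 of 10 members against 4.01% of all genes. *Ccne2* at 72 h had 15.2 and 17.9 in DKO against 11.2 and 11.4 (0.51, adjusted p = 0.0513). The response to mTORi itself did not differ by the test between the genotypes for any member, at 24 h (differences of −0.66 to 0.37) or at 72 h (−0.49 to 0.26). Of all genes, 0.00548% were called at 24 h and 0% at 72 h for this difference, 223 and 181 genes had an unadjusted p under 0.05, and of the members 0 and 0. The interval for *Cdkn1b* at 24 h ran from −1.69 to 0.36.

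*Other genes of the pathway.* Other genes were counted as 5 lists around the G1 machinery in the same fits, with the members themselves left out. The pocket proteins and E2F factors, through which cyclin D-CDK4 acts, were counted first: of 13 genes (*Rb1*, *Rbl1*, *Rbl2*, *E2f1* to *E2f8*, *Tfdp1* and *Tfdp2*), 3 were called lower at 24 h, 1 at 72 h and 5 at 144 h in wild type on the spike-in scale, 4 and 0 at 24 and 72 h in DKO, and none higher. The share of all genes called lower was 8.73%, 7.6% and 50.5% in these wild-type comparisons and 18.7% and 2.95% in DKO. With the block the counts lower were 6, 1 and 9 in wild type and 6 and 1 in DKO, where 1 was also higher at 72 h. Of all genes, 25.7%, 25.4% and 66.3% were then called lower in wild type and 38.1% and 13.2% in DKO. In DKO at 72 h, 974 of the 18232 genes tested were called higher with the block. Their median log2 fold change at 144 h was −0.81 against −0.83 for all genes. *E2f2* (−1.14, from a mean of 19.4 to 8.30 spike-in normalized TPM), *Tfdp1*, a dimerization partner of E2F (−1.07, from 289.5 to 137), and the repressor *E2f8* (−0.87, from 76.95 to 41.3) were the largest of those called, although *E2f8* had the opposite sign in deposited TPM. On that scale 2, 1 and 0 were called lower and 3, 4 and 5 higher at 24, 72 and 144 h in wild type, and 2 and 1 lower and 2 and 4 higher at 24 and 72 h in DKO. Of all genes, 14.1%, 11.4% and 11.7% were called lower and 15.8%, 12.6% and 15.6% higher on that scale in wild type, and 13.3% and 9.06% lower and 11.6% and 17.2% higher in DKO. The 5 higher at 144 h, named after their values were seen, were *E2f1*, *E2f6*, *E2f7*, *Rbl1* and *Tfdp2*.

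The other CDK inhibitors were all called lower at 144 h in wild type, 5 of 5 against 50.5% of all genes, with a median of −1.39 against −0.83 for all genes. On the log2 scale after adding 1 TPM, the changes were those of *Cdkn2b* (−1.75), *Cdkn1c* (−1.70), *Cdkn2a* (−1.39), *Cdkn2d* (−1.004) and *Cdkn2c* (−0.87), of which the INK4 genes *Cdkn2a* to *Cdkn2d* encode inhibitors of CDK4 and CDK6 and *Cdkn1c* encodes p57, a relative of p21 and p27. The added 1 TPM makes the change of scarce genes smaller. As means without it, *Cdkn2c*, at 1.66 spike-in normalized TPM at 0 h, stood at 26.1% of its start, against 11.6% for *Cdkn2b*, 29.2% for *Cdkn1c*, 33.8% for *Cdkn2a* and 47.4% for *Cdkn2d*. Earlier, 1 of 5 was called lower at 24 h and 1 at 72 h in wild type, and 2 and 0 in DKO, where 8.73%, 7.6%, 18.7% and 2.95% of all genes were. With the block it was 2 and 2 in wild type and 3 and 2 in DKO, against 25.7%, 25.4%, 38.1% and 13.2% of all genes. In deposited TPM only *Cdkn2b* was called lower at 144 h, and none of the 5 genes was called higher against 0 h, where *Cdkn1b* was.

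Of 13 genes for CDK activation and for turnover of G1 cyclins and inhibitors (*Cdc25a*, *Cdk7*, *Ccnh*, *Mnat1*, *Skp2*, *Cks1b*, *Cks2*, *Skp1a*, *Cul1*, *Rbx1*, *Fbxw7*, *Fbxo31* and *Ambra1*), 4 were called lower at 24 h, 4 at 72 h and 10 at 144 h in wild type, and 7 and 0 in DKO. Of all genes, 8.73%, 7.6% and 50.5% were called lower in wild type and 18.7% and 2.95% in DKO. With the block these counts were 8, 8 and 12 in wild type and 9 and 4 in DKO, where the shares of all genes were 25.7%, 25.4% and 66.3%, and 38.1% and 13.2%. The largest changes at 144 h were those of *Skp2*, the F-box protein that targets p27 for degradation (−1.59, from 89.2 to 28.9 spike-in normalized TPM), *Rbx1*, a subunit of its ubiquitin ligase (−1.55), and *Cdc25a*, the phosphatase that activates CDK2 (−1.54). These 3 were also called lower in deposited TPM at 144 h, among 3 lower and 2 higher of the 13, after 8 and 5 lower and 1 and 0 higher at 24 and 72 h. The shares of all genes at 24, 72 and 144 h were 14.1%, 11.4% and 11.7% lower and 15.8%, 12.6% and 15.6% higher. The later cyclins and *Cdk1*, which act from S phase to mitosis, were not called at 24 or 72 h in either genotype, 0 of 5, and all 5 were called lower at 144 h, against 50.5% of all genes: *Ccnf* (−1.22), *Ccnb1* (−1.19), *Cdk1* (−0.90), *Ccna2* (−0.96) and *Ccnb2* (−0.86). Their median was −0.96 against −0.83 for all genes, and in deposited TPM none of the 5 was called at 144 h and 2 were called lower at 72 h, against 11.4% of all genes, with *Cdk1*, *Ccna2* and *Ccnb2* at differences above 0 at 144 h. With the block 2 of the 5 were also called lower at 72 h in wild type, 2 at 24 h and 1 at 72 h in DKO, against 25.4%, 38.1% and 13.2% of all genes.

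Of 13 genes for p53 and its targets (*Trp53*, *Mdm2*, *Mdm4*, *Ccng1*, *Sesn1*, *Sesn2*, *Zmat3*, *Btg2*, *Gadd45a*, *Bbc3*, *Bax*, *Phlda3* and *Eda2r*), 0 were called lower at 24 h, 5 at 72 h and 10 at 144 h in wild type, and 2 and 1 in DKO. The shares of all genes called lower were again 8.73%, 7.6% and 50.5%, and 18.7% and 2.95%. With the block these counts were 4, 8 and 12 in wild type and 5 and 6 in DKO, against 25.7%, 25.4% and 66.3%, and 38.1% and 13.2%. The largest changes at 144 h were *Btg2* (−2.23, from 31.7 to 5.84), *Phlda3* (−2.17, from 61.97 to 12.8) and *Sesn2* (−2.12, from 136 to 30.5 spike-in normalized TPM), all 3 also lower in deposited TPM, where 2, 5 and 5 of the 13 were called lower and 1 higher at each of 24, 72 and 144 h (*Bbc3* at 24 h and *Gadd45a* later). On that scale 14.1%, 11.4% and 11.7% of all genes were called lower and 15.8%, 12.6% and 15.6% higher. The median of the list at 144 h, −1.57, was the lowest of the 5 lists, and *Cdkn1a*, itself a p53 target, had −1.27. Between DKO and wild type none of the genes of the 5 lists was called at 0, 24 or 72 h on the spike-in scale. In deposited TPM *Cdkn2a* was called higher in DKO at each of these times, and *Cul1* and *Sesn1* at 72 h. Of the 18232 genes tested, 77, 106 and 578 were called higher in DKO on that scale at 0, 24 and 72 h. Of the list genes named at 144 h, *Tfdp1*, *Cdkn2a*, *Cdkn2b*, *Skp2*, *Rbx1*, *Cdc25a*, *Ccnf*, *Ccnb1*, *Btg2*, *Phlda3* and *Sesn2* were called whichever of the 4 libraries was left out, and *E2f2*, *E2f8*, *Cdkn1c*, *Cdkn2c*, *Cdkn2d*, *Ccnb2*, *Ccna2* and *Cdk1* lost the call without at least 1 of them.

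**Figure D5:**
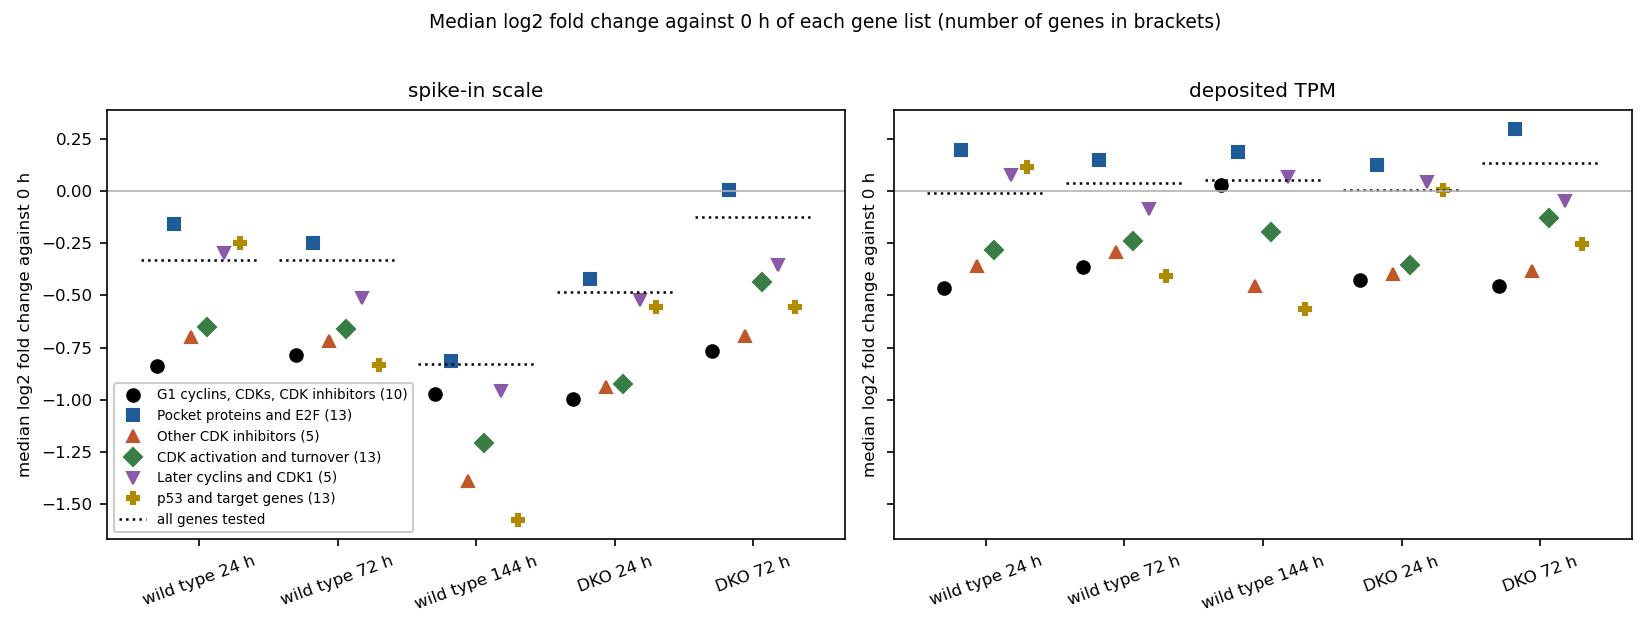
Median log2 fold change against 0 h (y axis) of the 10 members and of 5 other gene lists at each time (x axis), on the spike-in scale (left) and in deposited TPM (right); dotted lines are the median of all genes tested. The members lay below all genes at every time on the spike-in scale, and at 144 h in deposited TPM their median of 0.03 was next to the 0.05 of all genes.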

How the data were processed

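RNA-seq values of 14 mouse ES cell libraries were taken as deposited. Per the submitters' processing notes, which name cutadapt 2.4, STAR 2.7.3a and StringTie 2.0 (the study's methods give other versions of STAR and StringTie), the authors trimmed reads, aligned them to mm10 and assembled TPM per gene, so the deposited values are TPM, which keep no depth; the depth of a library is unknown and no counting interval is given. The authors' spike-in normalized TPM are in a supplementary table of which only part was read. The median ratio of these to the deposited TPM gave 1 factor per library, by which all genes were multiplied.

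Libraries were grouped by genotype and time from the labels, 2 per group. Log2(value + 1) was tested with limma 3.58.1 (R 4.3.3, lmFit and eBayes with a trend, all 7 groups in 1 fit) over the 18232 genes with a mean spike-in normalized TPM of at least 1, of 38890 above 0 in any library. P-values were adjusted by Benjamini and Hochberg over all genes tested, with a call at an adjusted p under 0.05 and 95% confidence intervals. The script recovered known changes in data simulated with the spread of these libraries. Unlike these data, the simulated libraries were drawn independently and held no shift common to all genes. Ratios were tested with Python 3.11.15. The labels number the replicates without saying what separates them, and the study states in general that its experiments were repeated independently. P-values measure the spread between these samples.

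Replicate numbers were shared by the groups. The study states that the time points of a replicate were handled in parallel, and same-numbered libraries deviated together within DKO (r of 0.222 to 0.341, 3 of 3 pairs over 0.1) and within wild type (0.0622 to 0.398, 5 of 6 pairs), but not between genotypes (10 of 12 pairs below 0). The number was therefore fitted as a block within each genotype, and for the members its values are given where it changed a call. All 10 members are named. From each pathway list the members called at 144 h with the largest changes are named, at most 3 a list, and every member of a list of at most 6 genes. Members and lists were chosen with earlier results of these data known. Alternatives were deposited TPM without factors, centring on the library median, a pseudocount of 0.1, no filter, the block, and leaving out each library. Promoter sequences are RefSeq's (GRCm38.p6). Protein sequences were not used here.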

Additional observations from a re-analysis of the deposited data

How the results depend on the processing

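Counts of members called were compared under 7 alternatives and with each library left out. A pseudocount of 0.1 TPM and the replicate number as a block across all libraries moved no count by over 1.5 times. With the replicate block within each genotype, 6 members were called at 72 h in wild type (3 without it), 3 between 72 and 144 h (0), 3 between 24 and 72 h in wild type (1), 7 between 24 and 144 h (4) and 3 between 24 and 72 h in DKO (0). In deposited TPM 3 were called at 144 h (7 on the spike-in scale), 4 between 24 and 72 h in wild type and 1 between the genotypes at 72 h. Deposited TPM with the block, added after seeing the data, gave 3 at 144 h, 7 at 72 h in DKO (4), 5 between 24 and 72 h in wild type and 2 in DKO, where 35.5%, 35.8%, 17.7% and 12.8% of all genes were called. Centring on the library median gave 5 at 72 h and 4 at 144 h in wild type, 7 at 72 h in DKO and 2 between 24 and 72 h in wild type, against 26.2%, 28.9%, 28.1% and 10.5% of all genes. Without the filter 0 were called between 24 and 72 h and 2 between 24 and 144 h. With 1 library left out, fewer members were called at 24, 72 and 144 h and from 24 to 144 h in wild type, whichever library it was. At 72 h in DKO and from 24 to 72 h in wild type the count fell or stayed. At 24 h and from 24 to 72 h in DKO the count could rise. The share of all genes called rose there as well without 24 h replicate 1. These fits leave 1 library in a group. All other counts with 1 library left out were 0, as with all libraries. Of 52 single calls printed, 25 were kept whichever library was left out. The signs that turned in deposited TPM, with or without the block, were those of *Ccnd1* (0.0969), *Ccnd2* (0.18), *Cdk4* (0.12), *Cdk6* (0.43), *Cdkn1b* (0.85), *E2f8* (0.14), *Ccnb2* (0.16), *Ccna2* (0.0661) and *Cdk1* (0.12) at 144 h in wild type, *Cdk4* at 72 h in wild type (0.18) and DKO (0.0374), and *Cdk6* at 24 h in wild type (0.0271) and DKO (0.0092) and at 72 h in DKO (0.13), as well as *Cdk2* from 24 to 144 h in wild type (0.00158). Centred on the library median, *Ccnd2* (0.0596), *Cdk6* (0.29) and *Cdkn1b* (0.73) at 144 h and *Cdk4* at 72 h (0.0412) in wild type turned. Centring shifts every gene of a library alike on the log2 scale, while dropping the factors before 1 TPM is added shifts scarce genes less. With 1 library left out, *Cdk6* ran from −0.79 to 0.12 at 24 h in wild type and from −0.35 to 0.0178 at 72 h in DKO, and *Cdkn1b* from −0.21 to 0.0072 at 144 h in wild type and from −0.18 to 0.75 and −0.0132 to 0.79 at 24 and 72 h in DKO. *Ccne2* from 24 to 144 h in wild type ran from −0.0904 to 0.32. Among the ratios, leaving out a library gave *Ccnd1* to *Ccnd3* under mTORi from −0.23 to 0.0785 and *Cdk4* to *Cdk6* by genotype from −0.39 to 0.0316. The genotype differences of *Ccnd2* to *Ccnd3* (−1.11 to −0.90), *Ccne1* to *Ccne2* (−0.55 to −0.38) and *Cdkn1a* to *Cdkn1b* (0.74 to 0.88) and the mTORi differences of inhibitors to G1 cyclins (1.01 to 1.46) and *Cdk4* to *Cdk2* (0.19 to 0.26) kept their sign but missed the threshold without 1, 8, 1, 2 and 1 of the libraries; beyond the smaller number of arrangements the cause was not tested. With the parallel series of a genotype as units (replicate block, added after seeing the data), the genotype differences of *Ccnd2* to *Ccnd3* (−1.01), *Ccne1* to *Ccne2* (−0.46) and *Cdkn1a* to *Cdkn1b* (0.81) did not pass, since 2 series against 2 cannot (exact permutation p = 0.333). Groups of 2 libraries and an unknown depth limit what can be seen of *Ccnd2*, the scarcest member.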
